A study of Homo sapiens with 2 samples.

Results

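Long noncoding RNAs were read on 2 arrays of A549, an established line of human lung adenocarcinoma. The siCONTROL array came from cells that received a control siRNA, and the siP62 array from cells in which the siRNA targeted SQSTM1, the gene of p62. RNA was extracted 24 hours after transfection. An siRNA is a short duplex that directs cleavage of a matching mRNA, and p62 is a ubiquitin-binding receptor of selective autophagy. With 1 array per group there was no replicate, so every difference below is between 2 arrays, carries no error and was not tested. A difference is the siP62 log2 value minus the siCONTROL log2 value.

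The genes were chosen by symbol and selected on the higher of their siCONTROL and siP62 values. The symbols were those of intergenic RNAs (LINC followed by a number), antisense RNAs (ending in AS and a number), intronic RNAs (ending in IT and a number), small nucleolar RNA host genes (SNHG), microRNA host genes (MIR...HG), and MALAT1, NEAT1, GAS5 and H19. NEAT1 and H19 were not analysed here. The array named 1004 such genes, and 142 of the 1004 (14.1%) reached the level limit of 5.35 in at least 1 array. That limit is the median log2 value of all named probe sets, and 7896 of 14884 genes in all passed it. All 142 were of the RefSeq biotype lncRNA. They comprised 70 of 480 antisense, 3 of 29 intronic, 55 of 458 intergenic, 8 of 9 SNHG and 4 of 26 microRNA host genes, and MALAT1 and GAS5. Because the level of the same 2 arrays chose them, and because the set was proposed with results of these arrays known, counts are descriptions. Just inside the limit lay LINC00602 (5.35 in siCONTROL and 5.15 in siP62), and just outside lay PXN-AS1 (5.25 and 5.34). For 24 of the 142, 1 of the values lay below the limit, so that value is not shown to be above background.

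Long noncoding RNAs are transcripts without a long open reading frame, and they are spliced, capped and often polyadenylated like mRNAs. Antisense RNAs start on the strand opposite a protein-coding gene, often at a shared promoter, and some alter the output of that gene. SNHG transcripts and GAS5 carry snoRNAs in their introns, and the spliced remainder is commonly removed by nonsense-mediated decay when it is translated. MIR host genes are the primary transcripts from which microRNA hairpins are cut. MALAT1 was first described through its association with metastasis of lung adenocarcinoma, and its RNA stays in nuclear speckles.

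SQSTM1 itself read 8.64 in siCONTROL and 7.30 in siP62, which left 39.5% of the control level. Cell identity was read from marker lists. Of the epithelial markers on the array 5 of 6 passed the limit, among them KRT18 (11.95 and 11.97) and EPCAM (7.38 and 7.59), while CLDN4 (4.29 and 4.31) did not. Markers of other cells passed in part. Of the leukocyte markers 2 of 3 passed, CD68 (8.48 and 8.42) and CD14 (5.98 and 5.94), and LYZ (3.02 and 3.06) did not. LUM, 1 of 2 fibroblast markers, and CLDN5, 1 of 4 endothelial markers, passed in siP62 alone (5.02 and 5.49, and 4.84 and 5.47), whereas DCN (2.18 and 2.13) and PECAM1 (2.92 and 3.14) did not pass. Of the alveolar type II markers 2 of 6 passed, in siCONTROL alone, SFTPD (5.85 and 5.27) and SFTPB (5.66 and 5.30), and SFTPC read 4.27 in each array. The part of these markers in the results was not tested. In RNA from a bulk culture, fewer cells expressing a gene and less RNA per cell cannot be told apart. The sources used here do not give the strand or the genomic position of the probes, so signal from an antisense or intronic RNA and from the overlapping sense transcript or its introns cannot be told apart.

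The windows below show the annotated starts of some of the host genes, picked by name, from RefSeq on GRCh38.p14. The 250 bases before the start are in lower case and 50 bases of transcript in capitals. Each is written 5′ to 3′ on the strand of the transcript.
SNHG16 (chr17:76557514-76557813, plus strand): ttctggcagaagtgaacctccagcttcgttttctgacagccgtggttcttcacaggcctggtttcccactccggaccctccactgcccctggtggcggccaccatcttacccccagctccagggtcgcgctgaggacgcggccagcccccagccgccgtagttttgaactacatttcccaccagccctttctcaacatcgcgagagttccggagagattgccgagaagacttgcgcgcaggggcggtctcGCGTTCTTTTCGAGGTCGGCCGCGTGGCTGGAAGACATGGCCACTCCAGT
SNHG8 (chr4:118278512-118278811, plus strand): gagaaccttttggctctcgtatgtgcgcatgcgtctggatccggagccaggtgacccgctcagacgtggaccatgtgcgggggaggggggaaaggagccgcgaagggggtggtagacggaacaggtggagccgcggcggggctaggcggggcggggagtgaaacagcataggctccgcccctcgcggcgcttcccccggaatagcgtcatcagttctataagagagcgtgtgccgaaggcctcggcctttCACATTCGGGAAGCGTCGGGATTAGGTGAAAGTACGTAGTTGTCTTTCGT
SNHG5 (chr6:85678684-85678983, minus strand): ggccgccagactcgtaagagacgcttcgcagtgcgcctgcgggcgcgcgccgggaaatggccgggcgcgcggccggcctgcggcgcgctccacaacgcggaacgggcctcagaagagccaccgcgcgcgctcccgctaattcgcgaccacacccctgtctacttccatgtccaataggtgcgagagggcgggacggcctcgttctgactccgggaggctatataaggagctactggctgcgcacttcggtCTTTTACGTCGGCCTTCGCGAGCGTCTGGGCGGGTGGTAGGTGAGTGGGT
GAS5 (chr1:173868996-173869295, minus strand): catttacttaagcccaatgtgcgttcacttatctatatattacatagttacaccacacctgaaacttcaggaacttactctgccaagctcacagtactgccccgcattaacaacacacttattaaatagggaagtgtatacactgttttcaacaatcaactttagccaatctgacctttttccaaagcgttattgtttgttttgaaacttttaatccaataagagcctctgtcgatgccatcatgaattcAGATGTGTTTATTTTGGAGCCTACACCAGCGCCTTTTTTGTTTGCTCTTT
MIR31HG (chr9:21559749-21560048, minus strand): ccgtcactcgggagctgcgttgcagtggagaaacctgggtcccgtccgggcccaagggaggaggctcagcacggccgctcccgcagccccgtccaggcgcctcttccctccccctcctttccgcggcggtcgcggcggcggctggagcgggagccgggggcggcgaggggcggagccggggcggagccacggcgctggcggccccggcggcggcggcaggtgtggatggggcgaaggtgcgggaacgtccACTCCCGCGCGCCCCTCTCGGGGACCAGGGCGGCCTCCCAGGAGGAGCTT

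Several transcripts of this host family are known as terminal oligopyrimidine RNAs, which begin with a C followed by a run of pyrimidines, as mRNAs of ribosomal proteins do. The letters CTTTT were searched on the transcript strand within 20 bases of any annotated start. They were found in 6.07% of the 27305 genes with a window, and in 3 of the 8 SNHG and GAS5 genes that have one, namely SNHG16, SNHG33 and SNHG5. On both strands the share of all genes was 9.86% and the same 3 hosts matched. CTTTT began at base 1 of SNHG5. In SNHG16 it began at base 6, so it does not open that annotated transcript. The match of SNHG33 began before the annotated start and so does not open its transcript. In GAS5 it began at base 33, beyond the searched stretch.

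SNHG16 and MIR31HG had the largest differences among the 142 genes with both values above the limit, and both were higher in the siP62 array. Of the 8 SNHG genes 7 lay above 0, beside 55.4% of all genes past the limit. Once 0.04, the median difference of the genes past the limit, was subtracted, 6 of the 8 did so. Antisense RNAs lay mostly below 0, in 46 of 70 genes, beside 41.8% of all genes past the limit. MALAT1 and MIR4435-2HG were lower on every probe set that read them. None of the 142 differed by 2-fold, beside 0.393% of all genes that passed the limit.

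At 1.5-fold, 4 of the 142 genes were higher in siP62 (2.82%), beside 2.08% of all genes that passed the limit, and 7 were lower (4.93%), beside 1.60% of all genes. Either direction together held 11 of the 142, beside 3.67% of all genes. Since the same values chose the genes, nothing is read from these shares. Of the 11, 5 had a value below the limit in 1 array. Among the 118 genes with both values at or above the limit, 3 were higher and 3 lower (2.54% each), beside 1.53% and 1.34% of the 7404 such genes in all. The split moved from 4 and 7 to 4 and 9 once the median difference of the genes past the limit, 0.04, was subtracted, and likewise with a loess curve or quantile normalization. With a limit of 6.67 it turned to 3 higher and 1 lower of 45 genes. Over the 142 genes the median difference was -0.01, with 75 genes below 0, 65 above and 2 at 0. All 7896 genes past the limit, called all genes here, had a median of 0.04, with 41.8% below 0 and 55.4% above. Without the limit the median over 14884 genes was 0.00. With quantile normalization it was 0.0088 over the 7882 genes past the limit. Where the 0.04 comes from was not tested. The robust SD (scaled median absolute deviation) over the 142 was 0.24, against 0.22 over all genes. That SD is a spread over genes, not an error between replicates.

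**Figure D1:**
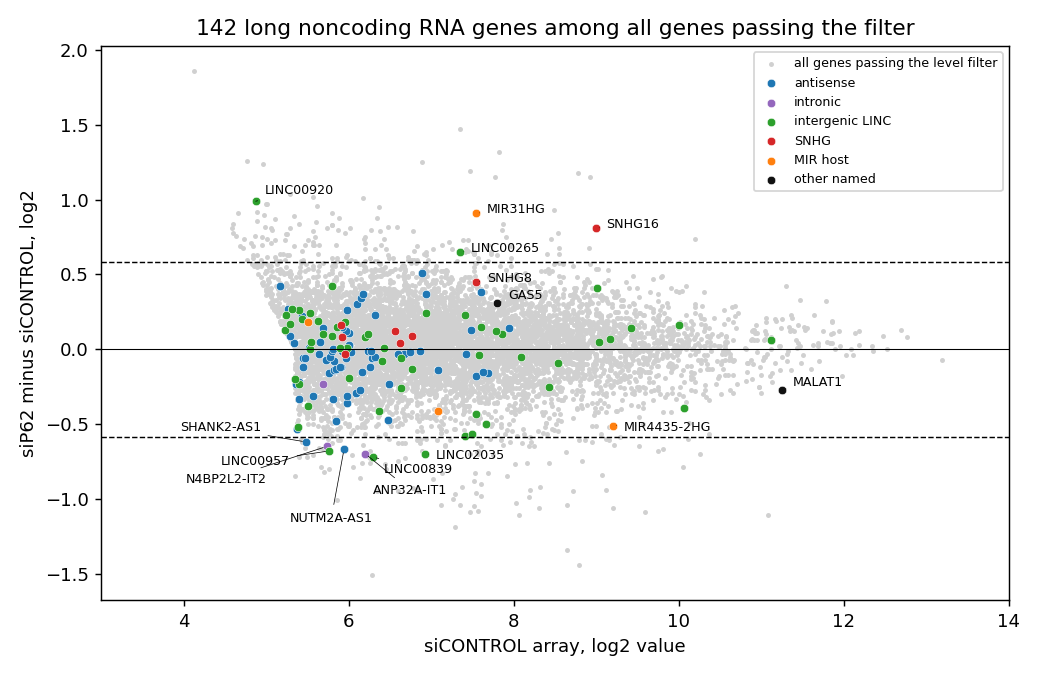
Each point is a gene, with its siCONTROL log2 value on the horizontal axis and its siP62 minus siCONTROL difference (log2) on the vertical axis; grey points are all 7896 genes that passed the limit, coloured points the 142 long noncoding RNA genes by class, and dashed lines mark 1.5-fold. MIR31HG and SNHG16 lie above the upper line at 0.91 and 0.81, and 7 members lie below the lower line.

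SNHG genes are named for hosting snoRNAs, many of which guide chemical modification of ribosomal RNA. Only named RefSeq entries of the biotypes snoRNA and miRNA were searched at their positions, so other classes of small RNA would be missed. Of the 8, 6 held a snoRNA by that search. SNHG20 held the microRNA gene MIR6516, and neither biotype was found in SNHG10. SNHG16, which carries 3 snoRNAs of the SNORD1 family, read 8.99 in siCONTROL and 9.80 in siP62, a 1.75-fold higher level. SNHG8, host of SNORA24, read 7.54 and 7.99, a difference of 0.45. GAS5, named for its accumulation in growth-arrested cells and host of 11 annotated snoRNAs, read 7.80 and 8.11, a difference of 0.31. These 3 hosts were higher in siP62 by more than that median of 0.04, as were 3846 of all 7896 genes and most of the other SNHG genes. SNHG16 alone passed 1.5-fold, beside 2.08% of all genes that were 1.5-fold higher. EPB41L4A-AS1, an antisense member that holds SNORA13, read 6.28 and 6.22, a difference of -0.06.

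The other SNHG genes differed by at most 0.16. SNHG17, host of the SNORA71 group, read 5.90 and 6.06. SNHG20 read 6.56 and 6.68, and SNHG5, host of SNORD50A and SNORD50B, read 6.77 and 6.86. SNHG33 read 5.91 and 5.99. These 4 genes lay above 0 by 0.08 to 0.16. SNHG10 read 6.62 and 6.66, a difference of 0.04 that equals the median of the genes past the limit. SNHG15 was the only SNHG below 0, with 5.95 and 5.92. The median over the 8 was 0.105, and 6 of the 8 lay above the median of all genes. Each of the 8 and GAS5 was read by 1 probe set. The snoRNAs inside these hosts had no row under their symbols and were not analysed here.

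The 4 microRNA host genes went both ways. MIR31HG, the host of miR-31 next to the CDKN2A region, read 7.54 in siCONTROL and 8.45 in siP62, a 1.88-fold higher level. MIR22HG read 5.50 and 5.68, a difference of 0.18. MIR4435-2HG read 9.20 and 8.69 on its probe set of highest mean, a difference of -0.51, and 7.84 and 7.42, and 5.77 and 5.44, on its others. Thus all of its probe sets were lower in siP62, by 0.33 to 0.51 on the log2 scale. MIR550A3HG read 7.08 and 6.67, a difference of -0.41. The microRNA hairpin loci that the array also reads lay under the limit, with 4.30 and 4.36 for MIR31 and 2.85 and 2.25 for MIR550A3. These values are not shown to be above background. Mature microRNAs were not measured.

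The mature microRNAs that these hosts encode are given by RefSeq (GRCh38.p14) as follows, 5′ to 3′, with the seed, bases 2 to 8, in capitals. No seed was shared among them.
hsa-miR-31-5p (MIR31HG): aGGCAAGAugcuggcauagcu
hsa-miR-4435 (MIR4435-2HG): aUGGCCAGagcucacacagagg
hsa-miR-22-3p (MIR22HG): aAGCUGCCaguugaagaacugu
hsa-miR-22-5p (MIR22HG): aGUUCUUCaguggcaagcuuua
hsa-miR-550a-3p (MIR550A3HG): uGUCUUACucccucaggcacau
hsa-miR-550a-3-5p (MIR550A3HG): aGUGCCUGagggaguaagag

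MALAT1 was lower in siP62 on all 3 of its probe sets. They read 11.25 and 10.98, 10.01 and 9.61, and 7.67 and 7.27 in siCONTROL and siP62, differences of -0.27, -0.40 and -0.40. No probe set of MALAT1 reached 1.5-fold.

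**Figure D2:**
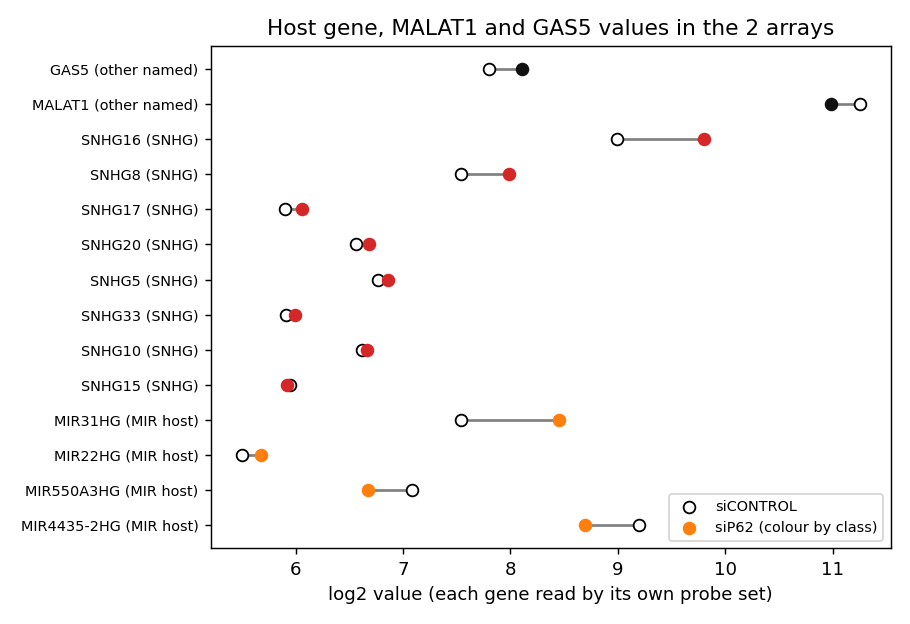
Log2 values of the 8 SNHG genes, the 4 microRNA host genes, MALAT1 and GAS5 in the siCONTROL array (open circles) and the siP62 array (filled circles), joined by a line for each gene; levels of different genes are read by different probes and are not to be set against each other. The longest lines are those of MIR31HG (7.54 to 8.45) and SNHG16 (8.99 to 9.80).

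Intergenic RNAs lay on both sides of 0. Of 55 LINC genes, 32 lay above 0, 22 below and 1 at 0, with a median of 0.05 beside 0.04 for all genes. The median was -0.01 over 49 genes when the probe sets of a gene were averaged, and -0.045 over 458 genes without the limit. LINC00920 had the highest difference of all 142 genes, 0.99, from 4.87 in siCONTROL to 5.86 in siP62, and the former lay below the limit. LINC00265 read 7.35 in siCONTROL on its probe set of highest mean and was higher by 0.65 in siP62. Its other probe sets went the opposite way, with 6.60 and 6.21, and 3.54 and 3.25, so its direction turned to -0.01 when they were averaged.

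On the lower side, LINC00839 read 6.29 and 5.57, a 1.65-fold lower level in siP62. LINC02035 read 6.92 and 6.22, a 1.62-fold lower level. Both were read by 1 probe set and had both values above the limit. LINC00957 read 5.76 and 5.08, with the siP62 value below the limit, and its further probe set read 4.50 and 4.46. Just short of 1.5-fold, and chosen after their values were seen, lay LINC00473 (7.41 and 6.83), an RNA induced by cAMP signalling that is known to be high in LKB1-deficient lung cancer lines, and LINC00997 (7.49 and 6.92).

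The LINC genes with the highest probe set values differed less. LINC00987 read 11.11 and 11.17, and LINC01347 read 10.16 in siP62, a difference of 0.16. LINC02582 read 10.06 and 9.67, a difference of -0.39. LINC00999 read 9.42 and 9.56, and LINC00933 read 9.01 and 9.42. Only LINC02582 of these 5 was lower in siP62. Several LINC genes had many probe sets, 7 for LINC01061 and 6 for LINC01347, and probes were not checked against near-identical copies of these genes.

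**Figure D3:**
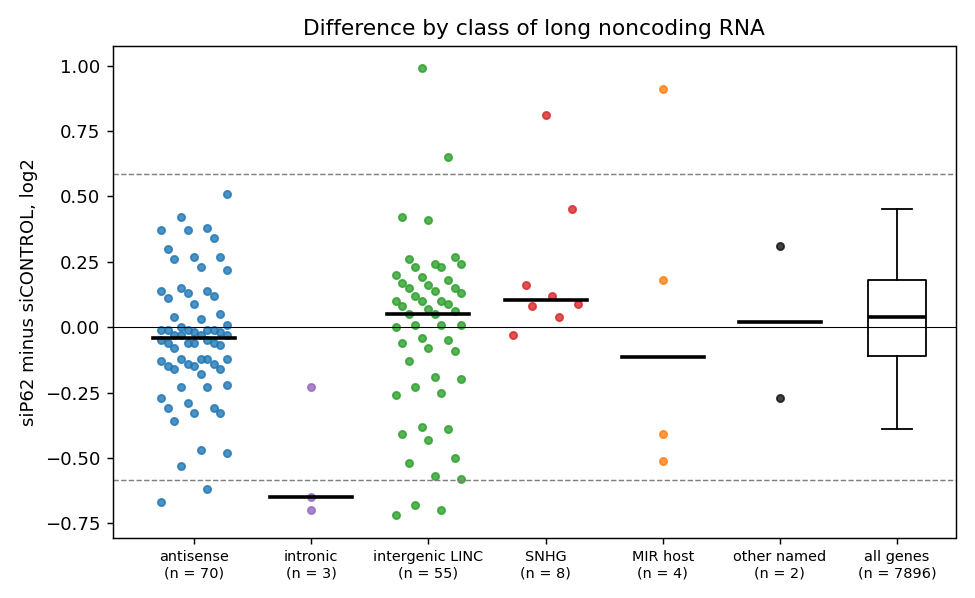
Difference between the arrays (siP62 minus siCONTROL, log2) for each of the 142 genes by class, with the class median as a black bar; the box at the right gives the median, quartiles and, as whiskers, the 5th and 95th percentiles of all 7896 genes, and dashed lines mark 1.5-fold. The SNHG median is 0.105 and the antisense median -0.04, beside 0.04 for all genes.

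Several probe sets above the limit read 12 of the 142 genes. The differences of their probe sets spanned a median of 0.395 on the log2 scale, against 0.13 for all 244 such genes on the array. A span, the highest minus the lowest difference, tends to grow with the number of probe sets. That number reached 7 here (LINC01061) and was not matched, so nothing is read from the 2 spans. In 5 of the 12 all probe sets had the same sign: MIR4435-2HG, MALAT1, LINC00674, ASMTL-AS1 and LINC00999. In 6 of the 12 they had opposite signs: LINC00265, LINC01347, LINC01023, LINC01000, HLA-F-AS1 and GAS6-AS1. The last of the 12, LINC01061, had a probe set at 0 beside others above it. Most of the 142 genes were read by 1 probe set, and 27 by more.

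**Figure D4:**
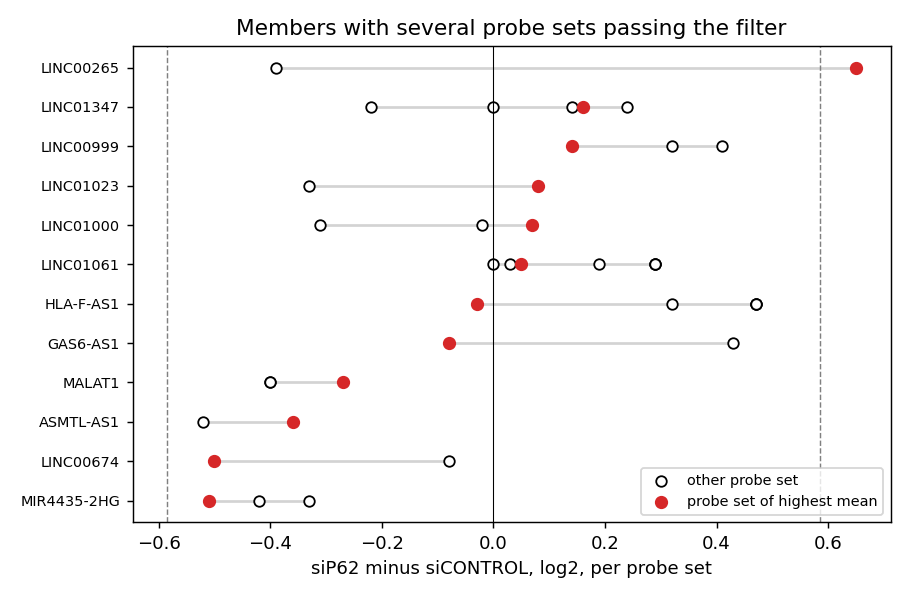
Difference (siP62 minus siCONTROL, log2) of each probe set above the limit for the 12 genes with more than 1 of them; red points are the probe sets that stand for the gene, open points the others, and dashed lines mark 1.5-fold. The probe sets of MALAT1 and MIR4435-2HG all lie below 0, and those of LINC00265 lie at 0.65 and -0.39.

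Antisense RNAs lay mostly below 0. Of 70, 46 were lower in siP62 (65.7%), 23 higher and 1 equal, beside 41.8% lower among all genes. Their median was -0.04. It ranged from -0.08 to -0.02 under the other settings tried, which include a loess curve on level. NUTM2A-AS1 (5.94 and 5.27) and SHANK2-AS1 (5.48 and 4.86) were the antisense RNAs past 1.5-fold, both lower in siP62. Both had a siP62 value below the limit. They were 2 of 70 (2.86%), beside 1.60% of all genes 1.5-fold lower. None was 1.5-fold higher, beside 2.08% of all genes. The highest was ASB16-AS1, with 6.88 and 7.39, a difference of 0.51. The 3 intronic RNAs were all lower: ANP32A-IT1 read 6.20 and 5.50, N4BP2L2-IT2 read 5.73 and 5.08, and GABPB1-IT1 read 5.69 and 5.46. Of these, N4BP2L2-IT2 had a siP62 value below the limit.

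Antisense and intronic RNAs were then set beside the genes they are named after. For 32 of 73 the sense gene passed the limit too, for 15 it was on the array below the limit, and 26 had no row under the sense symbol and were not analysed here. In the 32 pairs the signs were the same in 14, opposite in 17, and in 1 the sense gene was at 0. Across the pairs the differences had a Pearson correlation of 0.09, a description over 32 pairs that share both arrays. No sense gene of a pair reached 1.5-fold, beside 3.67% of all genes past it in either direction. The median size of the gap between an RNA and its sense gene was 0.245.

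Among the pairs with the same sign, 10 were lower in both and 4 higher in both. PDCD4-AS1 (6.08 and 5.79) went with PDCD4, a translation inhibitor and tumour suppressor, which read 8.48 and 7.94. ZNF503-AS2 (5.81 and 5.48) went with the zinc finger gene ZNF503 (6.35 and 5.85). These pairs had differences of -0.29 and -0.54, and -0.33 and -0.50. TMEM147-AS1 (6.15 and 6.49) was higher together with TMEM147, a membrane protein of the endoplasmic reticulum (9.75 and 10.12). N4BP2L2-IT2 differed by -0.65 and N4BP2L2 by -0.32. LPP-AS2 differed by -0.15 and LPP, a focal adhesion protein, by -0.39, and SVIL-AS1 by -0.14 and SVIL, the actin-binding supervillin, by -0.55. ASMTL-AS1 (-0.36) and ASMTL (-0.12), and BABAM2-AS1 (-0.33) and BABAM2 (-0.07), were lower by unequal amounts. The siP62 values of N4BP2L2-IT2 (5.08) and BABAM2-AS1 (5.07) lay below the limit. EPB41L4A-AS1 (-0.06 and -0.07 for EPB41L4A) and EHBP1-AS1 (-0.03 and -0.15) lay close to 0, as did URB1-AS1 (0.11 and 0.08) and WAC-AS1 (0.03 and 0.07). GAS6-AS1 differed by -0.08 and GAS6 by -0.09, but a further probe set of GAS6-AS1 read 5.46 and 5.89, and the mean over both, 0.175, had the opposite sign to GAS6. The last pair, MAP3K14-AS1 (0.30) and MAP3K14 (0.01), the kinase of noncanonical NF-kB signalling, had the same sign only by the sense gene's 0.01.

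Among the 17 pairs of opposite sign, the RNA was higher and the sense gene lower in 6, and the reverse held in 11. LOXL1-AS1 read 6.17 and 6.54, while LOXL1, a lysyl oxidase that crosslinks elastin, read 5.60 and 5.22. FRMD6-AS1 read 5.57 and 5.26, while FRMD6, an upstream component of the Hippo pathway, read 5.91 and 6.35. These pairs had the widest gaps, 0.75 each, and each had a value below the limit. SHANK2-AS1 (-0.62) stood beside SHANK2 at 0.05, and ASB16-AS1 (0.51) beside ASB16 at -0.07. MZF1-AS1 (0.26) stood beside MZF1 (-0.32), and ZBTB11-AS1 (0.22) beside ZBTB11 (-0.29). VAC14-AS1 (-0.12) stood beside VAC14 (0.23), PCGF3-AS1 (-0.01) beside PCGF3 (0.29) and RPL26L1-AS1 (-0.14) beside RPL26L1 (0.11). The remaining 8 pairs, those of ARHGAP5, CCDC183, DHRS4, MNX1, PRR7, SNAI3, TMPO and VPS9D1, had differences within 0.25 of 0 on either side. PCNA-AS1 differed by 0.37 (6.93 and 7.30), whereas PCNA, the replication clamp, read 10.01 in each array.

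The distance between annotated starts could be computed for 25 of the 32 pairs. In 15 pairs the starts lay within 2000 bases of each other, with the same sign in 6, opposite in 8 and 1 at 0. In 10 they lay farther apart, with the same sign in 4 and opposite in 6. Of the 15, 7 were divergent, with the RNA starting upstream of the sense gene and running away from it, and 4 of these had the same sign. The closest divergent starts were those of LPP-AS2 and LPP, 69 bases apart. Next came URB1-AS1 and URB1, 121 bases apart with differences of 0.11 and 0.08, and MNX1-AS1 and MNX1, a homeobox gene, 194 bases apart with differences of -0.23 and 0.18. The sequences from the base after the sense gene's start to base 50 of the antisense RNA are shown for URB1, a pair of the same sign, and MNX1, a pair of opposite sign, from RefSeq on GRCh38.p14 on the strand of the antisense RNA, whose transcribed bases are in capitals.
URB1-AS1 (chr21:32393013-32393182, plus strand): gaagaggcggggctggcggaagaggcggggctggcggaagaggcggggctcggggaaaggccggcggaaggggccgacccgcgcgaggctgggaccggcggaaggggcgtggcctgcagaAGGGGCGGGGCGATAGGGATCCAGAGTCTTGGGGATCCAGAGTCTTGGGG
MNX1-AS1 (chr7:157010664-157010906, plus strand): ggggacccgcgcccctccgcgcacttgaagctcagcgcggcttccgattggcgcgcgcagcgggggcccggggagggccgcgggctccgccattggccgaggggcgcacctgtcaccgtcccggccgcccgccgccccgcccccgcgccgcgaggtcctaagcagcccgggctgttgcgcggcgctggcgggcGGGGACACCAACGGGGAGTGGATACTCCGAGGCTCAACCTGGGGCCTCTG

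**Figure D5:**
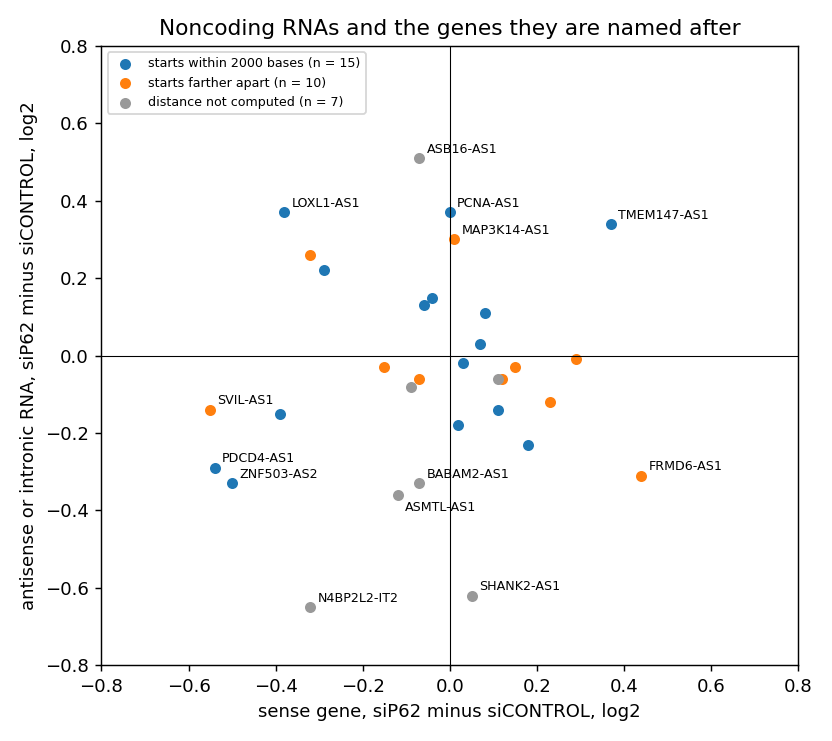
Each point is 1 of 32 antisense or intronic RNAs, with the difference of its sense gene on the horizontal axis and its own difference on the vertical axis (both siP62 minus siCONTROL, log2), coloured by the distance between annotated starts. Points fall in all 4 quadrants, 14 with the same sign and 17 with opposite signs.

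Promoter windows of 300 bases were available for 122 of the 142 genes, and 4 motifs were searched on both strands. The core of the antioxidant response element bound by NRF2, TGACNNNGC, was in the windows of 28 of the 122 (23.0%), beside 16.1% of 27305 genes. The AP-1 site TGACTCA was in 8.20% beside 6.05%, the E-box CACGTG in 7.38% beside 8.77%, and the cAMP response element TGACGTCA in 1.64% beside 2.25%. Of the 10 genes past 1.5-fold that have a window, SHANK2-AS1 held TGACNNNGC, NUTM2A-AS1 held CACGTG and LINC00265 held TGACGTCA. TGACNNNGC and TGACTCA can overlap. A match is a stretch of letters and not a bound site.

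Genes whose products act on long noncoding RNAs were read from lists, and each list is given as its genes past the limit of those the array named. Of 19 listed genes of nonsense-mediated decay, the exon junction and decapping, which take part in decay of spliced host transcripts, the array named 9. Of these 9, 8 passed the limit, with a median difference of 0.01 and none past 1.5-fold. That 0.01 turned below 0 once the median of 0.04 was subtracted. Largest were the decapping genes DCP2 (-0.37) and DCP1A (0.31) and the exonuclease gene XRN1 (-0.18). Nuclear exosome genes had a median of 0.11 over 13 of 13, with 9 above 0 and none past 1.5-fold, led by the subunit genes EXOSC9 (6.15 and 6.62), EXOSC3 (7.11 and 7.56) and EXOSC8 (6.15 and 6.41). Genes of snoRNP proteins, which bind the snoRNAs released from the hosts, had a median of 0.11 over 11 of 12, with 9 above 0 and none past 1.5-fold. Their largest differences were those of the assembly factor NAF1 (0.31), NHP2 (0.29) and SHQ1 (0.21). Terminal oligopyrimidine mRNAs, here ribosomal protein and translation factor genes and a few paralogs, had a median of 0.11 over 52 of 57, with 40 above 0 (76.9%, beside 55.4% of all genes) and 3 past 1.5-fold, all higher (5.77%, beside 2.08%). These were RPL22L1, whose siCONTROL value of 4.96 lay below the limit, RPL9 (6.19 and 6.86) and RPL6 (6.20 and 6.79). The medians of 0.11 stand beside 0.04 for all genes. The lists with none past 1.5-fold stand beside 3.67% of all genes past it in either direction.

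Paraspeckle protein genes had a median of -0.025 over 12 of 12 and none past 1.5-fold, with CIRBP, a cold-inducible RNA-binding protein gene, at 0.58, RBM14 at -0.33 and PSPC1 at -0.27. Nuclear speckle protein genes, whose products share a compartment with MALAT1, had a median of 0.01 over 15 of 15, below 0 after that subtraction, with SON, a scaffold of speckles, at 0.35, CLK4 at -0.25 and THRAP3 at 0.22. Genes of microRNA processing had a median of 0.00 over 9 of 9, from a list of 16. Among them TNRC6B, a partner of Argonaute proteins, read 8.18 and 7.19, a 1.99-fold lower level, while TARBP2 differed by 0.39 and LIN28B by 0.32. Chromatin partners of long noncoding RNAs had a median of 0.00 over 12 of 12, with WDR5 at 0.31, EZH2, the methyltransferase of PRC2, at -0.26, and RCOR1 at -0.15. TNRC6B was the only gene past 1.5-fold in these last 4 lists, beside 3.67% of all genes past it in either direction.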

How the data were processed

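Per the labels' protocols, 100 ng of Trizol-extracted RNA was labelled with biotin by an Affymetrix whole transcript method. The deposited table holds 48226 probe sets, each with its log2 value in both arrays, and RMA and version 4.0.2.15 of Transcriptome Analysis Console stand in the submitters' processing notes. The genome build was not given in the sources used here, and log2 values ran from 1.16 to 13.75, and RMA commonly makes the distributions of arrays alike, so that a shift of all genes would not be seen. Arrays have no read depth, and precision is limited by their number.

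Symbols came from the platform annotation, which gave a single one for 16098 probe sets. All members were found in RefSeq's GRCh38.p14 table, used for biotypes and neighbours. The probe set with the highest mean stood for a gene, and genes were kept if the higher value reached 5.35. No test was possible with 1 array per group, so genes were counted at 1.5-fold (0.585 on the log2 scale). The members, lists and thresholds were chosen with earlier results of these data known. Named genes were those past 1.5-fold, all SNHG and MIR host genes, MALAT1 and GAS5, every pair with both genes kept, the 5 LINC genes and the 5 members of highest level, and the 3 largest differences of each list; any other gene was picked with its values known. Alternatives were the mean over probe sets, subtraction of the median or of a lowess curve (fraction 0.3), quantile normalization, no filter, a filter at the 70th percentile (6.67) and 2-fold. Counting was tested on simulated data of 7896 genes in which 200 were raised, or 200 lowered, by 1.0 (log2). Of these, 100.0% and 99.5% were recovered. That planted change lay well above the cut of 0.585, and no member differed by more than 0.99. The recovery therefore checks the counting step alone. It says nothing about calls near the cut or about error between arrays. Python 3.11.15, numpy 2.4.6, pandas 2.3.3, statsmodels 0.14.6 and matplotlib 3.10.9 were used.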

Additional observations from a re-analysis of the deposited data

Results flagged for a closer look

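Genes that RefSeq lists as lncRNA but that the symbol rule leaves out entered no comparison above, and 2 of the 72 that passed the limit (2.78%, beside 2.08% of all genes that passed it) were at least 1.5-fold higher after p62 silencing than in the control. CTBP1-DT, a divergent transcript next to CTBP1, read 5.64 and 6.34, a difference of 0.70 on the log2 scale. LOC285889 read 4.81 and 5.52, a difference of 0.71, with the siCONTROL value below the limit of 5.35. Neither difference was tested.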

How the results depend on the processing

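No paired analysis was possible because each group held 1 array. A median was taken as moved when it shifted by at least 0.13, the median span between probe sets of a gene, and a count when it changed by more than 1.5 times. Of 108 values under other settings, 99 did not move. The class and list medians among them were all below 0.13 in size in the main setting. A median could therefore change sign and still not count as moved. The LINC median did so, from 0.05 to -0.045 without a filter. Without a filter 15 genes were 1.5-fold higher and 28 lower among 1004 (1.49% and 2.79%, beside 2.05% and 2.14% of all 14884 genes), and 136 of 334 pairs had the same sign. With the filter at the 70th percentile 3 genes were higher and 1 lower of 45 (6.67% and 2.22%, beside 1.75% and 1.69% of all genes), so the share of calls that were higher went from 36.4% to 75%. Under it the members' median was 0.05, as over all genes, the SNHG median was 0.285 over 4 genes, the MIR host median was -0.41 over 3, and 1 of 4 pairs had the same sign. At 2-fold 0 genes were higher and 0 lower. LINC00265 turned to -0.01 and LINC00957 to -0.36 with the mean over probe sets. Fewer or more genes pass under each filter. Over all genes the share of 1.5-fold calls that were higher moved from 56.6% to 45.2% once the median was subtracted. Values near the limit may be close to background, and no detection call was used here.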

Other observations

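The lncRNA genes outside the symbol rule that passed the limit numbered 72. Their median difference was 0.01, with 36 above 0, 33 below and 3 at 0. LOC100129617 (5.47 and 4.81) was the only one 1.5-fold lower (1.39%, beside 1.60% of all genes), with the siP62 value below the limit. CYTOR, a near-identical copy of MIR4435-2HG, was lower in siP62 on all 3 of its probe sets, which read 9.85 and 9.55, 8.75 and 8.37, and 8.66 and 8.31. Probes were not checked against either copy, so the values of CYTOR and MIR4435-2HG are not independent readings. NBR2, a transcript next to BRCA1, read 6.20 and 5.68. ZFAS1, a further snoRNA host, read 9.67 and 9.80, and NORAD, which binds Pumilio proteins, read 9.95 and 9.97. PURPL, a p53-induced RNA, read 6.36 and 6.13. These 5 genes were named after their values were seen.

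Of the 862 long noncoding RNA genes by symbol that lay below the limit, 335 were above 0, 464 below and 63 at 0, with a median of -0.04. Among them PSMA3-AS1 had the lowest difference, -0.97, from 5.04 to 4.07, and MAX-AS1 the highest, 0.82, from 2.82 to 3.64. All of these values lie below the limit and are not shown to be above background.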
